A study of Mus musculus with 11 samples.

Results

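The Rag1 and Rag2 locus is the 260 kb stretch of mouse chromosome 2 that holds Rag1, Rag2 and their upstream elements, and every called peak that overlapped it was taken, by position alone. These were 127 of the 120616 peaks in the 6 peak lists of the series. ChIP-seq, the sequencing of DNA bound to an immunoprecipitated protein, had been done on FACS-sorted CD4+ CD8+ double positive (DP) thymocytes of mice aged 6 weeks. Histone H3 acetylated at lysine 27 (H3K27ac), which marks promoters and enhancers in use, was mapped in 2 wild-type (WT) libraries from control littermates and in 2 Rad21 -/- libraries (KO). In the KO mice a floxed Rad21 allele had been deleted by a Cre transgene under Cd4 control, which acts from the stage at which the cells were sorted, and whether the controls carried the floxed allele or the Cre is not given in the sources used here. Smc1a, a subunit of the cohesin ring to which Rad21 also belongs, was mapped in 2 WT libraries only, so cohesin was not compared between genotypes. Nothing in the labels ties each library to a mouse of its own, and the p-values below measure the spread between these libraries, which may be technical.

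Rag1 and Rag2 encode the recombinase that cuts antigen receptor genes at recombination signal sequences. In DP thymocytes it rearranges the T cell receptor alpha chain gene, and the pair of genes is shut off after positive selection. The genes are transcribed towards each other and are known to be driven by their promoters together with distal elements that lie on the upstream side of Rag2. Cohesin holds distant stretches of chromatin together in loops. In the RefSeq gene table Rag2 and Rag1 are next to each other, with Iftap on the Rag2 side and Traf6, a signalling adaptor gene, on the Rag1 side. The peaks are in mm9 coordinates and no mm9 gene positions were used here, so single peaks could not be assigned to a promoter, exon or intron, and the cell type was not checked against marker genes.

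The promoters of both genes are shown because they are the start points of the recombinase genes whose surroundings were mapped. They come from RefSeq, build GRCm38.p6, at chr2:101649483-101649782 on the minus strand for Rag1 and chr2:101624462-101624761 on the plus strand for Rag2. These positions belong to another build than the peaks and cannot be set against them. Capitals mark the letters TGTGGT, the core bound by Runx factors, and CANNTG, the E-box bound by E proteins such as those encoded by Tcf3 and Tcf12.
Rag1: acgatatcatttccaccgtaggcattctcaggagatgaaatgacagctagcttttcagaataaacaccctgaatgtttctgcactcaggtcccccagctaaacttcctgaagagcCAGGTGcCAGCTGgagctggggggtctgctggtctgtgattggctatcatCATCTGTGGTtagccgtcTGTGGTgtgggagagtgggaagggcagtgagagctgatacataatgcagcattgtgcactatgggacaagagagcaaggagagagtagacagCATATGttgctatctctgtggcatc
Rag2: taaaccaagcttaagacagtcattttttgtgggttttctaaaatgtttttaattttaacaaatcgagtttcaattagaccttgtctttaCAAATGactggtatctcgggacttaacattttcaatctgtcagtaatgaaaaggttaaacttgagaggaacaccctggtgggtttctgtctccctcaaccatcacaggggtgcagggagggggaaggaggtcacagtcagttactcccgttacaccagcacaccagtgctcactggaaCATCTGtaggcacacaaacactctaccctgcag

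The Rag1 promoter held 2 matches to TGTGGT and 4 to CANNTG, and the upstream TGTGGT shares bases with the E-box CATCTG. The Rag2 promoter held no TGTGGT and 2 matches to CANNTG. Searched on both strands, TGTGGT was present in 16.8% and CANNTG in 72.3% of the 32851 promoters of the same length, so the E-box matches are common. GGAAGT (Ets factors) had 1 match at Rag1, on the opposite strand, and none at Rag2, against 23.8% of all promoters with a match. No match was found in either window to the letters AGATAA of the GATA family, to CTTTGA of the TCF family or to TGTTTAC of the Foxo family.

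Acetylated chromatin at the locus was shorter in Rad21-deleted than in WT thymocytes. H3K27ac peaks covered 88.7 kb of the locus in WT replicate 1 and 103 kb in WT replicate 2. They covered 76.5 kb in KO replicate 1 and 65.4 kb in KO replicate 2. Both KO libraries lay below both WT libraries, and the groups did not overlap. The means were 95.8 ± 10.2 kb in WT and 70.9 ± 7.87 kb in KO (SD, n = 2 each), a difference of -24.9 kb or 26.0% of the WT length. With 2 libraries against 2 an exact two-sided permutation test cannot go below p = 0.333, and this difference gave p = 0.333.

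The lists as a whole did not differ in that way, since they covered 56.3 and 45.6 Mb in WT and 52.7 and 47.6 Mb in KO libraries, with overlapping groups. Per Mb of list, the locus held 1575 and 2260 bp in the WT lists, against 1453 and 1374 bp in the KO lists. Both KO values were again the lower ones (means 1917 ± 484 and 1414 ± 55.8 bp per Mb, SD, n = 2 each; exact permutation test, p = 0.333, the smallest possible). WT replicate 2 set much of this difference of -504 bp per Mb, which was -162 without that library and -846 without WT replicate 1.

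As called, the KO lists held more peaks at the locus, and shorter ones. There were 16 and 15 peaks in the WT lists and 19 and 17 in the KO lists (exact permutation test, p = 0.333). The difference of 2.5 peaks was 1.5 without KO replicate 1, and it turned to -2.5 when the upper 75% of each list by score was kept. The median peak was 3894 and 3538 bp long in the WT libraries and 2535 and 1878 bp in the KO libraries, again without overlap (p = 0.333 in the exact permutation test). The broad regions 3 and 10 had 2 or 3 peaks in each WT list and 5 in each KO list, while regions 6 and 8 had 1 peak in every list and region 5 had 3 and 1 in WT and 2 in each KO list. Peak number and length depend on where the caller split a stretch. Gaps between KO peaks were as short as 2 bp in region 3 and 12 bp in region 10, and some WT peaks were also split at short gaps.

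**Figure D1:**
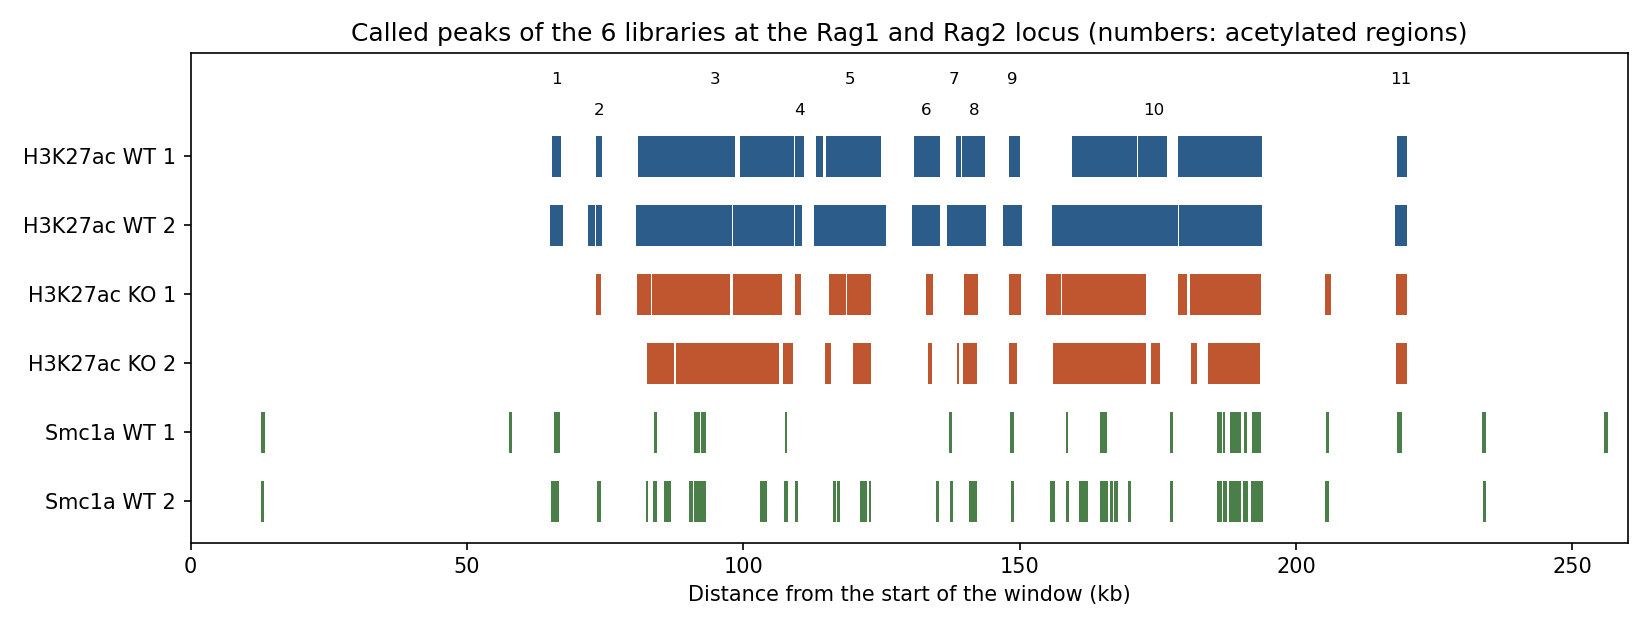
Called peaks along the 260 kb locus, with distance from the start of the window in kb on the horizontal axis and 1 row per library (blue, WT H3K27ac; orange, KO H3K27ac; green, WT Smc1a). Numbers mark the 11 acetylated regions called in at least 2 H3K27ac lists; the broad regions 3 and 10 are filled in all 4 H3K27ac rows, while regions 5 to 7 between them are thinner in both KO rows.

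**Figure D2:**
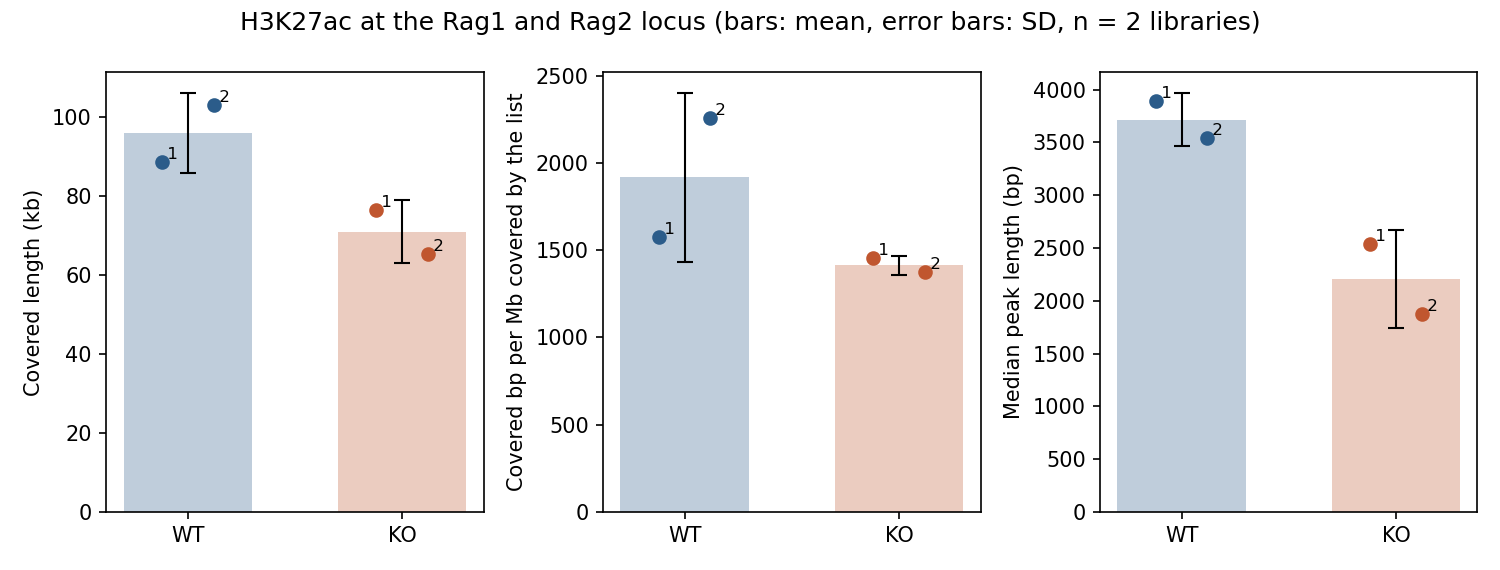
Covered length in kb, covered bp per Mb of list, and median peak length in bp at the locus, for WT (blue) and KO (orange). Points are libraries numbered by replicate, bars are means and error bars are SD (n = 2); in each panel both KO points lie below both WT points.

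Overlapping or touching H3K27ac peaks of the 4 lists were merged into regions, which gave 13 at the locus and 24430 in the genome. Of the 13, 7 were called in all 4 lists, against 49.6% in the genome. A single region, region 1, was called in both WT lists and in neither KO list, where 2.33% of all regions were. This count moved with the score threshold, to 4 with the upper 75% of each list. It was 2 without WT replicate 1, WT replicate 2 or KO replicate 2, and 3 without KO replicate 1. With a library left out, however, 1 list fewer has to meet the rule, so the count can rise for that reason alone. No region was called in both KO lists and in neither WT list, against 2.82% of all regions. The 2 single-list regions were 1280 bp in WT replicate 2 and 1104 bp in KO replicate 1. In 8 of the 13 regions both KO libraries covered fewer bp than both WT libraries, which held for 15.9% of regions in the genome. The genome shares are over regions of all lengths and were not matched to the locus. Broadly acetylated windows, treated below, had this order more often. The reverse order was found in 0 of 13 regions, against 17.0% in the genome. Scaled to the covered length of each list, KO lay below WT in 7 of the 13 regions, against 12.2% of all regions. Among the 7 regions called in all 4 lists, the ratio of KO to WT covered length ran from 0.216 to 0.949 with a median of 0.621, beside a median of 0.984 over the 12129 such regions of the genome. The KO lists were below the WT lists in 4 of these 7 and in 22.9% of the 12129.

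Most of the acetylated length lay in 2 broad regions, and these were largely kept. Region 3 spanned 101380659 to 101409237 of chromosome 2 (28579 bp). It was covered over 27505 bp and 28424 bp by the WT lists and over 25521 bp and 25291 bp by the KO lists, so that KO was 9.15% lower without overlap. It was called as 2 peaks in each WT list and as 5 in each KO list. Region 10, the longest, spanned 101454815 to 101493839 (39025 bp). It was covered over 32054 bp and 37882 bp by the WT lists and over 32408 bp and 28896 bp by the KO lists, and here KO replicate 1 lay above WT replicate 1. Peaks with the score of 3100, at which many of the authors' H3K27ac peaks are tied, were found in both regions in all 4 lists. Together the 2 broad regions were covered over 59559 bp and 66306 bp by the WT lists and over 57929 bp and 54187 bp by the KO lists.

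The regions between the broad ones carried most of the difference. Regions 4 to 9 were covered over 24534 bp and 29667 bp by the WT lists and over 14645 bp and 9318 bp by the KO lists. Their mean was 55.8% lower in KO, while that of regions 3 and 10 together was 10.9% lower. They made up 60.7% of the difference at the locus, and the 2 broad regions 27.6%. This grouping by place was made after the values were seen and was not tested.

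Region 5 (101412874 to 101425783, 12910 bp) was covered over 11215 bp and 12910 bp by the WT lists and over 7560 bp and 4331 bp by the KO lists. Region 6 (101430510 to 101435667, 5158 bp) was covered over 4756 bp and 5158 bp by the WT lists and only 1312 bp and 826 bp by the KO lists. In both regions each KO library was below each WT library, by 50.7% and 78.4% in the means. The remaining KO peaks of region 6 had scores of 65.23 and 55.39, near the lowest score of about 50 in every list, and those of WT had scores of 662.55 and 390.8. Scores are the authors' own values and rank peaks within a list, so they show no change between lists.

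Region 7 (101436908 to 101439487) was covered over 979 bp and 2580 bp by the WT lists, had no peak in KO replicate 1 and had 368 bp in KO replicate 2. Region 8 (101439636 to 101443926) was covered over 4054 bp and 4265 bp by the WT lists and over 2666 bp and 2502 bp by the KO lists. Both regions again separated the genotypes, though region 7 differed between the WT libraries by more than either KO value. Region 9 (101446985 to 101450522) was covered over 1936 bp and 3538 bp by the WT lists and over 2050 bp and 1291 bp by the KO lists, with overlapping groups. Region 4 (101409330 to 101410930) was covered over 1594 bp and 1216 bp by the WT lists and 1057 bp in KO replicate 1, and it had no peak in KO replicate 2.

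The outer regions were short. Region 1 (101365050 to 101367380) was covered over 1606 and 2331 bp in the WT lists, where its scores were 52.95 and 228.36, and it had no KO peak. The WT replicate 1 peak is therefore among the weakest calls of its list, and a missing peak is a missing call and not a measured absence of acetylation. Region 2 (101373273 to 101374497) was covered over 1201 bp and 1215 bp by the WT lists and 921 bp in KO replicate 1, with no peak in KO replicate 2. Region 11 (101517945 to 101520173), at the other end of the locus, was covered over 1761 bp and 2229 bp by the WT lists and over 1910 bp and 1878 bp by the KO lists. It was the region with the smallest relative difference among the 11, 5.06% lower in KO with overlapping groups.

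**Figure D3:**
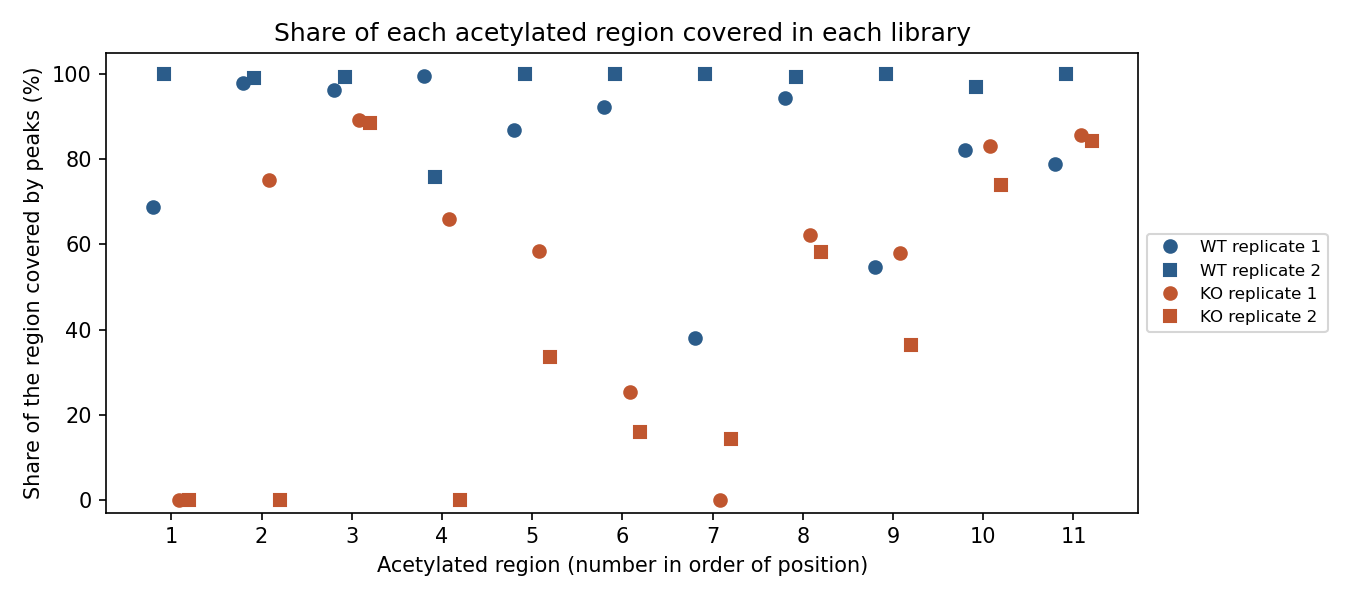
Share of each of the 11 regions covered by peaks, in percent, for each H3K27ac library (blue, WT; orange, KO; circles, replicate 1; squares, replicate 2). In regions 1 to 8 both orange points lie below both blue points, and in regions 9 to 11 the colours overlap.

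Counted by base, 88068 bp of the locus were covered in both WT lists. Of these, 55607 bp (63.1%) were also covered in both KO lists, 18633 bp (21.2%) in 1 KO list and 13828 bp (15.7%) in neither. In the genome 5.86% of the bases covered in both WT lists were covered in neither KO list, and 82.7% in both. These genome shares were not matched for the length of the acetylated stretches. In the opposite direction 14 bp of the locus were covered in both KO lists and in neither WT list, which is 0.0233% of the bases of both KO lists, against 4.64% in the genome. The lost bases formed 24 stretches, and 7 of them were at least 1000 bp long and held 10461 bp. The longest, from 101430902 to 101433075 (2174 bp), was the left part of region 6. Next came 101423199 to 101424878 (1680 bp) at the right end of region 5, and 101365447 to 101367052 (1606 bp) in region 1. The share of lost bases was 1.89% in region 3 and 8.77% in region 10, the broad ones. Between them it was 12.9% in region 4, 27.3% in region 5, 72.4% in region 6, 62.4% in region 7, 32.0% in region 8 and 3.46% in region 9. In the outer regions it was 100% in region 1, 22.7% in region 2 and 0% in region 11. Of the regions between the broad ones, only regions 6 and 7 thus lost most of these bases in both KO lists. In regions 4, 5, 8 and 9 most were still covered in at least 1 KO list. The lost share of the locus was 31.4% without KO replicate 1 and 21.2% without KO replicate 2. In either case 1 list has to lack a base in place of 2. Of the bases of both WT lists, 13813 bp were covered by KO replicate 1 alone and 4820 bp by KO replicate 2 alone. In the genome these lengths were 3846220 and 812082 bp, so KO replicate 2 lacked more of these bases in both.

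The order of the genotypes at the locus, with both KO libraries below both WT libraries, was common among broadly acetylated windows, and a difference of its size was less so. The genome was cut into consecutive windows of 260000 bp, of which 2699 had at least 5000 bp covered in the mean of the 4 lists. Both KO libraries lay below both WT libraries in 18.4% of these windows and above them in 18.2%. The KO to WT ratio of the locus was 0.740, beside a median of 1.01 over the windows, and 180 windows (6.67%) had a lower ratio. Mean covered length was above that of the locus in 15 windows. In the 95 windows with at least 50000 bp covered, KO lay below WT in 65.3% and the median ratio was 0.834, with 18 of them (18.9%) below the ratio of the locus. The ratio of the locus was thus below the median of both sets of windows, and lower ratios were found in each set. When regions called in at least 2 lists were joined across gaps of up to 10000 bp, regions 1 to 10 formed 1 cluster of 128790 bp. It ranked 7 of 1417 clusters by mean covered length, and 31.4% of the clusters had both KO libraries below both WT libraries. Among the 50 largest clusters this share was 76.0%, with the reverse order in 4.0%. It was covered over 86900 bp and 100799 bp by the WT lists and over 73495 bp and 63505 bp by the KO lists, and 179 clusters had a lower KO to WT ratio.

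**Figure D4:**
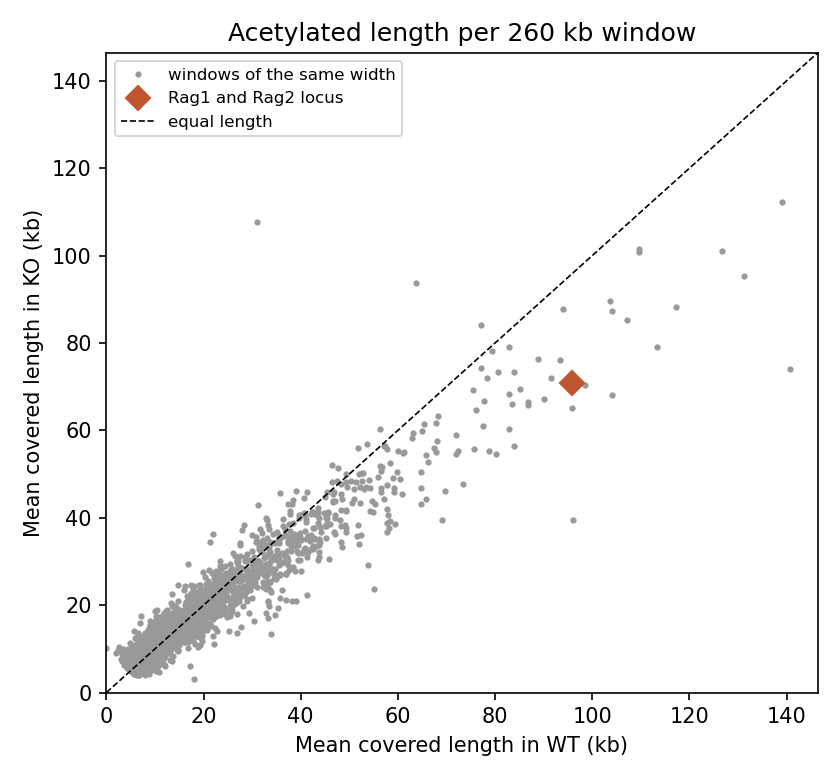
Mean covered length in KO against that in WT, in kb, for 2699 windows of 260 kb (grey points) and for the Rag1 and Rag2 locus (orange diamond, 95.8 kb in WT and 70.9 kb in KO). The dashed line marks equal length; the locus lies below it, as do most windows with long acetylated stretches.

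Cohesin lay densely on the locus in WT cells. The Smc1a lists held 22 peaks (replicate 1) and 38 peaks (replicate 2) there, and merging gave 18 sites with a peak of both lists. Another 3 sites came from replicate 1 alone, with scores of 61.78 to 290.08, and 20 from replicate 2 alone, with scores of 50.72 to 416.81. The greater number in replicate 2 ran against the sizes of the lists, 25484 peaks for replicate 1 and 17726 for replicate 2. Among 322 windows of 260 kb with at least 20 Smc1a peaks in all, 19.3% held more peaks of replicate 2 than of replicate 1, and 4 had a ratio as high as the 1.73 of the locus. As many peaks as at the locus were found in 21 of the 322 windows in replicate 1 and in 1 in replicate 2. The 20 sites of replicate 2 alone were thus not called in the longer list.

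Of the 18 reproducible sites, 15 overlapped a region called in both WT lists, a share of 83.3% against 22.2% of the 14848 reproducible sites in the genome. Of the 11 regions called in both WT lists, 5 held a reproducible site (45.5%, against 19.5% of 13645 such regions in the genome). Regions of this locus were long, and the share was not adjusted for length. Region 10 held 8 of the sites and region 3 held 4, and regions 1, 7 and 9 held 1 each. Regions 2, 4, 5, 6, 8 and 11 held no reproducible site. Among the regions with a reproducible site, both KO lists were below both WT lists in regions 1, 3 and 7, and the groups overlapped in regions 9 and 10. Among those without one, both KO lists were below in regions 2, 4, 5, 6 and 8, and the groups overlapped in region 11. Whether a site goes with kept acetylation was not tested. In the regions without a reproducible site, sites of replicate 2 alone numbered 4 in region 5, 1 in region 6 and 2 in region 8. Regions 2 and 4 also held a site of replicate 2 alone (scores of 102.62 and 72.24). Region 11 held a site of replicate 1 alone (score of 72.97).

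Of the sites in the broad regions, site 14 (101487967 to 101490096, 2130 bp, in region 10) had scores of 353.55 and 863.2 in replicates 1 and 2. Site 10 (101464479 to 101465949, region 10) had scores of 376.41 and 608.8. In region 3, site 3 (101383664 to 101384454) had scores of 598.35 and 642.77, and site 5 (101392232 to 101393329) had scores of 165.21 and 865.27. These 4 sites were covered over their whole length by H3K27ac peaks in both WT and both KO libraries. Not all sites of the broad regions were. Site 9 (101458319 to 101458900, region 10, scores of 54.58 and 114.25) had no peak of WT replicate 1 over it. Site 11 (101477269 to 101477802, region 10, scores of 54.94 and 103.68) was covered by WT replicate 2 alone. Sites 12 to 16 stood close together at the right end of region 10, from 101485735 to 101494108.

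Sites outside the broad regions behaved differently from each other. Site 2 (101365121 to 101366859) had scores of 541.31 and 664.27 and lay on region 1, the region with no KO peak. Site 7 (101437313 to 101437881, scores of 53.9 and 81.52) lay on region 7 and was covered by WT replicate 2 alone. Site 8 (101448331 to 101449074, scores of 157.28 and 216.24) lay on region 9 and was covered in all 4 H3K27ac lists. Site 17 (101505341 to 101506031, scores of 330.26 and 428.32) had no H3K27ac peak of either WT list or of KO replicate 2 over it. It was covered by the 1104 bp peak of KO replicate 1, whose score of 59.38 is near the lowest of about 50. Site 1 (101312755 to 101313489) had the highest Smc1a score of the locus in replicate 2, 970.71, and 485.05 in replicate 1. It had no H3K27ac peak over it in any list and lay 51560 bp from the nearest region of both WT lists. Site 18 (101533738 to 101534421, scores of 102.34 and 82.82) was also free of H3K27ac peaks.

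H3K27ac peaks of both WT lists lay over 12 of the 18 sites. Both KO lists also had a peak at 10 of these 12 (83.3%, against 90.4% in the genome), 1 KO list at site 6 and neither at site 2. By base, acetylation shared by both WT lists was covered in both KO lists over 83.0% of the 13908 bp inside reproducible sites and over 59.4% of the 74160 bp outside them. In the genome these shares were 91.5% and 81.8%, in the same order. At the locus, regions 10 and 3 held 8 and 4 of the 18 sites. Both KO lists covered 77.0% of the shared WT bases of these 2 broad regions, against 33.8% in regions 4 to 9. Outside the broad regions, only sites 2 and 8 lay under peaks of both WT lists. Both KO lists covered site 8 in full, and neither covered site 2. The contrast over the whole locus thus mixes lying in a site with lying in a broad region. Inside the broad regions, both KO lists covered 80.7% of the shared WT bases of region 3 and 73.8% of those of region 10. Of the sites there, 3, 4, 5, 10 and 12 to 15 were covered in full by both KO lists. Site 16 was covered in part by both, and site 6 by KO replicate 2 only. Sites 9 and 11 had no peak of WT replicate 1 over them. Bases of 1 locus are not independent and no test was made.

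**Figure D5:**
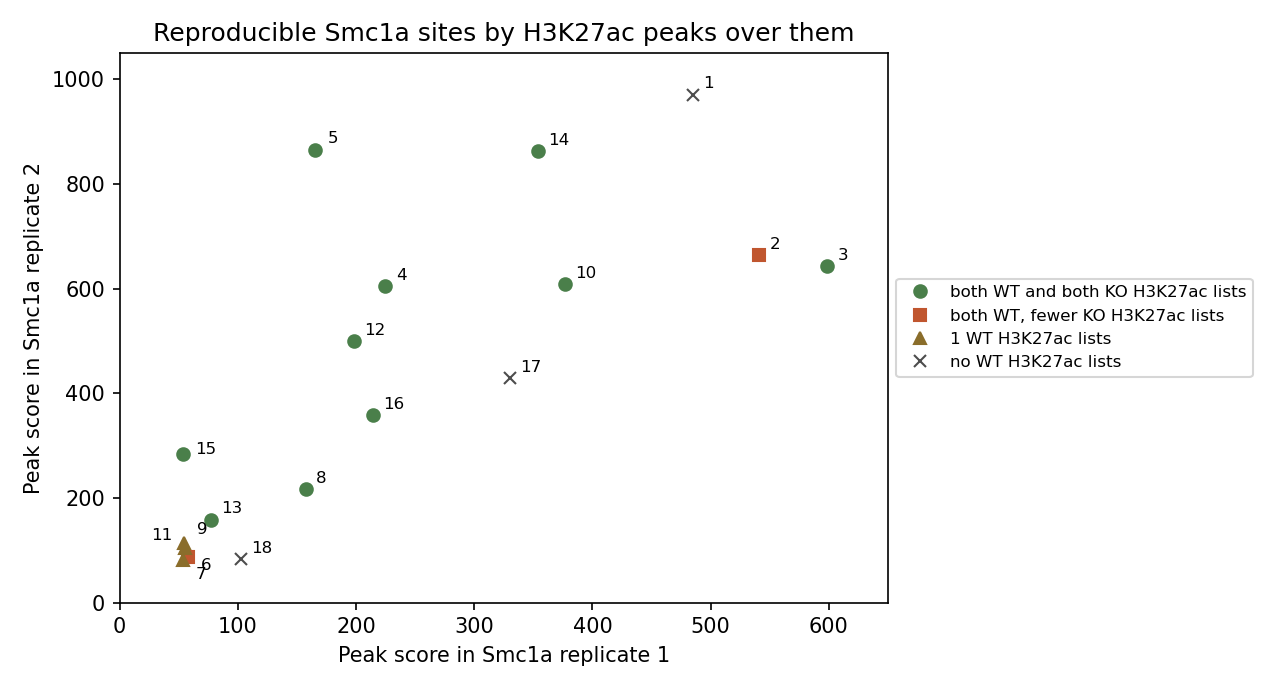
Peak score in Smc1a replicate 2 against that in replicate 1 for the 18 reproducible sites, numbered in order of position. Symbols show which H3K27ac lists have a peak over the site. Site 2 is the high-scoring site with H3K27ac peaks in both WT lists and in no KO list. Site 1 is the high-scoring site without an H3K27ac peak in any list.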

How the data were processed

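H3K27ac and Smc1a peak lists of 6 libraries were analysed, and the 5 input libraries were not analysed here. The authors aligned their reads to mm9 with Bowtie 0.12.8, per the submitters' processing notes. Each deposited list gives the start and end of each peak in bp and the authors' peak caller score, per the file contents, for a single library with MACS peak names. For the caller's settings and the scale of the score, nothing is given in the sources used here. The lists hold no read counts, so depth is unknown, no interval was computed, and covered length depends on what was called.

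Peaks were kept if they overlapped the window by at least 1 bp, and covered bp were clipped to it. Regions merge overlapping or touching peaks, and starts are counted from 1. Named were regions called in at least 2 H3K27ac lists and Smc1a sites called in both. Differences between libraries were tested by exact permutation, two-sided. Python 3.11.15 and numpy 2.4.6 were used, and interval functions were tested on simulated data. Alternatives were a stricter score threshold, equal peak numbers, other windows, overlaps and merging, scaling, the replicate block and each library left out. The members, lists and tests were chosen with earlier results of these data known. The lists of pathway and marker genes were not tested, for want of mm9 gene positions.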

Additional observations from a re-analysis of the deposited data

How the results depend on the processing

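For the locus, 10 results were recomputed under 85 alternatives, 10 of them chosen after seeing the data, and 71 kept their direction or stayed within 1.5 times the reported value. Covered length kept its direction throughout, with differences of -32082 to -17715 bp when 1 library was left out, and so did the share of the list (-846 to -162 bp per Mb). The difference in peak number turned from 2.5 to -2.5 with the upper 75% of each list and to -0.5 with equal peak numbers, and ran from 1.5 to 3.5 with a library left out. The cause was not tested. Regions of both WT and neither KO list numbered 4 with the upper 75%, 2 with equal peak numbers, 2 where peaks had to cover 50% of a region, and 2 to 3 with a library left out. Regions of both KO lists alone numbered 0 to 1, the 1 being found without KO replicate 2. Regions called in all lists numbered 4 with the 50% overlap, and 7 to 9 with a library left out. Regions with KO below WT numbered 9 to 12 in the latter case. With a library left out, each of these rules has 1 list fewer to meet, so these region counts can rise for that reason alone. The share of lost bases was 24.0% with the upper 75% and 16.1% to 31.4% with a library left out. Windows with at least 50000 bp covered had KO below WT in 65.3%, against 18.4%. Pairing by replicate number (replicate block) left the differences of -24898.5 bp, -504 bp per Mb and 2.5 peaks as they were, with p = 0.5 for each in an exact sign-flip permutation test, the smallest that 2 pairs allow. Deviations of same-numbered libraries correlated at r = 0.13 across 12129 regions, which are not independent, and the labels do not say that numbers pair libraries. Depth is unknown, so weak acetylation below the calling threshold cannot be told from its absence.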

Other observations

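The 260000 bp before the window held no H3K27ac peak in any of the 4 lists, and the first acetylated region began 51560 bp after Smc1a site 1. The 260000 bp after the window held 7329 bp and 6827 bp of peaks in the WT lists, against 5683 bp and 6763 bp in the KO lists. Both KO values there were below both WT values, by 12.1% in the means (exact permutation test, p = 0.333, the smallest possible).

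Among Smc1a sites of replicate 2 alone, the highest score was 416.81, at 101402984 to 101404223 inside region 3. The next was 331.17, at 101421101 to 101422409 inside region 5. Both stretches were covered by H3K27ac peaks of all 4 lists over their whole length. The latter lies in the part of region 5 that stayed acetylated in both KO lists.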
